A study of Mus musculus with 168 samples.

Results

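Genes that mark axon growth and the response of neurons to axon injury were followed in 6 populations of mouse neurons as they matured, with and without spinal muscular atrophy (SMA), a disease in which motor neurons degenerate because the SMN protein is scarce. The members were taken by name: Atf3, Sprr1a, Gap43, Sox11, Stmn2, Klf6, Klf7, Gadd45a, Basp1 and Cap23. Cap23 is another name of Basp1, so the 10 names gave 9 genes of 39410 rows in the table. The neurons came from the red nucleus, a midbrain nucleus outside the motor neuron pools, and from the ocular (oculomotor and trochlear), facial, vagus, hypoglossal and lumbar motor nuclei. About 150 cells per tube were cut from frozen sections by laser and sequenced as polyA RNA with a full-length cDNA method. SMA mice were Smn-/-/SMN2+/+/SMNΔ7+/+, that is, without mouse Smn and with the human SMN2 and SMNΔ7 transgenes. Control littermates were Smn+/+/SMN2+/+/SMNΔ7+/+ and carried the same transgenes, so neither group is wild type. Mice were sampled at postnatal days 2, 5 and 10, labelled presymptomatic, early symptomatic and late symptomatic for SMA. Each tube is bulk RNA, so fewer cells of a type and less RNA per cell cannot be told apart.

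When an axon is cut, its neuron switches on transcription factors such as Atf3, Sox11 and Klf6, and these drive a programme that includes small proteins of the regrowing axon, such as Gap43 and Sprr1a. Many of these genes are also active while axons first grow, and their levels fall as neurons mature. Gap43 and Basp1 (also called CAP-23) are abundant proteins under the membrane of the growth cone, where they act on the actin skeleton, and Stmn2 acts there on microtubules.

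Promoter sequences were matched for 7 of the 9 members in a RefSeq table of GRCm38.p6. The 250 bases before each start were searched on both strands for the AP-1 site TGACTCA, a motif bound by Jun and Fos family dimers, for the cyclic AMP response element TGACGTCA, and for the GC box GGGCGG, a motif bound by Sp and Klf family factors. These motifs were found in 4.46%, 1.55% and 32.7% of 32851 promoters. A GC box occurred in 6 of the 7 members, with 5 matches in Atf3, 4 in Basp1, 2 in Sox11 and 1 each in Gadd45a, Klf6 and Klf7. Some of the matches in Atf3 and Basp1 overlap each other. The response element was found in none of the 7. The promoters of Sprr1a, Basp1 and Klf7 are printed to show these patterns side by side: Sprr1a, an injury-induced gene whose level varied widely between mice, Basp1, a growth cone gene that fell with age, and Klf7, a transcription factor of the members. Capitals mark the AP-1 site in Sprr1a and the GC boxes in the others. All are on the minus strand and are written 5′ to 3′ in the direction of transcription, at chr3:92485882-92486131, chr15:25413765-25414014 and chr1:64121390-64121639 in that order.
Sprr1a: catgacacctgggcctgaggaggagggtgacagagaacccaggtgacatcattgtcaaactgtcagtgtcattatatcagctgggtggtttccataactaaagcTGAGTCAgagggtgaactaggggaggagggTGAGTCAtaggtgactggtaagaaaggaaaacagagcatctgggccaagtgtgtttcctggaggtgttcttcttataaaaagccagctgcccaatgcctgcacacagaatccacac
Basp1: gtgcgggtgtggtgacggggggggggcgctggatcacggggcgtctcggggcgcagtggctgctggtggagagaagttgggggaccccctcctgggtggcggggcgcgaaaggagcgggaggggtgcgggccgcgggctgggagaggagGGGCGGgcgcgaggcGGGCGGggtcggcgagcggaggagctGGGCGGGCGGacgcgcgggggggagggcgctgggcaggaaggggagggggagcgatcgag
Klf7: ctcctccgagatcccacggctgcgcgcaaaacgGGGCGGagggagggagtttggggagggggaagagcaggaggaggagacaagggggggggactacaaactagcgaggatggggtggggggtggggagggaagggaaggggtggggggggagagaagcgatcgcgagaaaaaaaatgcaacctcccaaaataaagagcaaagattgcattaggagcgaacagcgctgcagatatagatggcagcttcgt
Sprr1a had 2 AP-1 sites, read as TGAGTCA on the gene's strand, ending 140 and 110 bases before its start, and no GC box. It was the only 1 of the 7 with an AP-1 site. Its promoter was 49.6% G and C, against 78.8% for Basp1 and 59.2% for Klf7. A match describes these letters only and shows no binding.

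The 168 libraries came from 34 mice, 15 control and 19 SMA, and gave 160 samples of a mouse and a population in 36 groups of 3 to 7 mice. Depth ran from 0.342 to 16.3 M reads (M for mega), and the median was 5.89. Smn1, the gene removed in SMA mice, was at 4.32 to 63.3 RPKM (reads per kilobase of gene and M reads) in the 72 control samples. In SMA it was at 0 in 70 of 88 samples and reached 4.24. Summed markers of motor neurons were at 659 to 1799 RPKM in control motor nuclei and at 29.9 to 100.5 in the control red nucleus. The red nucleus pair Pou4f1 and Slc17a6 summed to 317 to 716 in the control red nucleus at day 2 and to at most 49.4 in control motor nuclei. Over all days, Pou4f1 was at 77.7 to 528 and Slc17a6 at 120.8 to 247 in the control red nucleus. In control motor nuclei they reached 11.9 and 49.4. The labels give 7 ocular libraries as oculomotor alone and 4 as trochlear alone, and record that the 5 lumbar control libraries of day 5 include reads from another deposit.

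The first comparison asked how the members change as control neurons mature. Of the growth cone genes, Gap43 fell in 5 of 6 populations between day 2 and day 10 and Basp1 in 3, while Stmn2 passed the test as lower in the red nucleus alone. Of the others, Klf7 fell in 2 populations and Atf3 in 1, Gadd45a rose in 2, and Klf6, Sox11 and Sprr1a passed the test in no population. Over all members and populations, 12 of 49 tests passed as lower and 2 as higher. The test was limma on log2(RPKM + 1), adjusted over all genes of a population, and differences below are on that scale. The share of all genes tested that passed as lower was 5.42% in the red nucleus, 3.64% in ocular, 2.76% in facial, 0.437% in vagus neurons, 2.68% in hypoglossal neurons and 7.25% in lumbar neurons. The share that passed as higher, where a member did, was 2.6% in facial and 4.76% in lumbar neurons. The median difference of the members tested lay between -0.78 in the red nucleus and -0.12 in hypoglossal neurons, and that of all genes between -0.10 and 0.06.

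Gap43 (chr16:42248442-42340651, minus strand; GRCm38, GENCODE M21, as for all gene positions here) was measured above 0 in all 160 samples. In control lumbar neurons it was at 860, 964, 1064 and 1094 RPKM at day 2 and at 218.6, 255.9, 265 and 298 at day 10. In control ocular neurons it was at 630, 690, 819 and 891 at day 2 and at 118.96, 135, 180 and 207.7 at day 10. Every day 10 mouse lay below every day 2 mouse in all 6 populations, a separation that 6.04% of all pairs of a gene and a population showed as lower. The difference was -2.25 ± 0.29 (SE) in ocular neurons (adjusted p = 1e-05) and -1.94 ± 0.15 in lumbar neurons (adjusted p = 1.9e-10). It was -1.49 ± 0.17 in facial, -1.39 ± 0.22 in hypoglossal and -1.38 ± 0.24 in red nucleus neurons, which all passed. In vagus neurons the 3 day 2 mice were at 2364, 2387 and 3337 and the 4 day 10 mice at 1414, 1580, 1902 and 2073. That difference was -0.63 ± 0.22 and did not pass (adjusted p = 0.21).

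**Figure D1:**
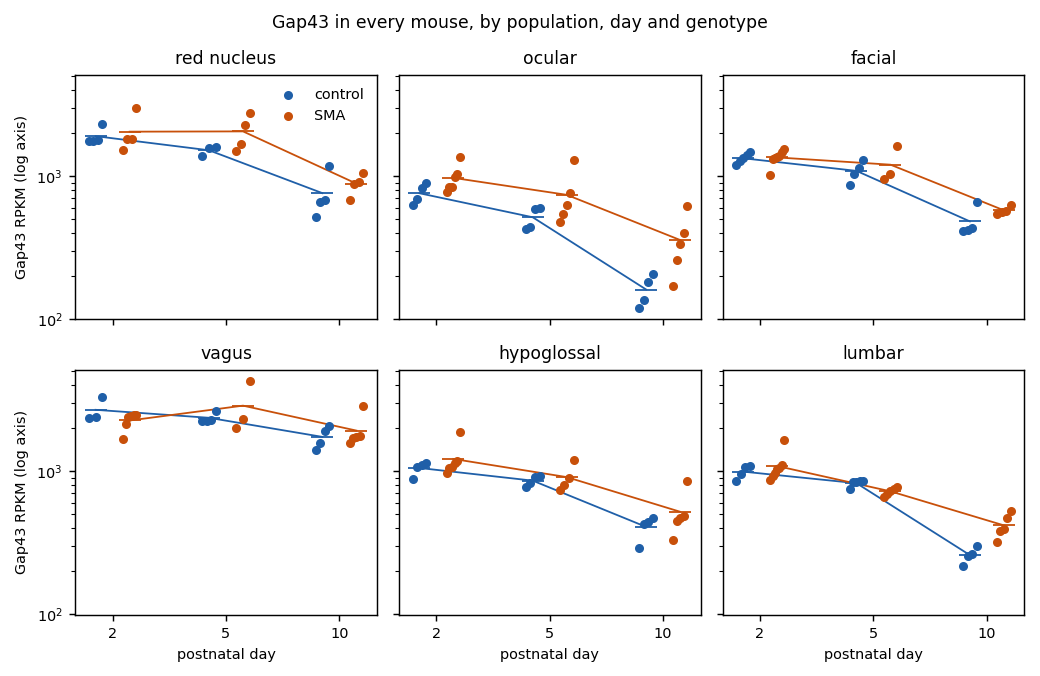
Gap43 RPKM on a log axis against postnatal day in the 6 populations, 1 point per mouse, with control (blue) and SMA (orange) side by side, short bars at group means and lines joining them. Control lumbar values fell from 860 to 1094 at day 2 to 218.6 to 298 at day 10, and vagus neurons stayed at 1414 or above at all ages.

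The calls for Gap43 came between day 5 and day 10. No member passed between day 2 and day 5 in controls, where 6 of 49 tests had an unadjusted p under 0.05, against 9.83% of the tests of all genes. After adjustment, 0.0558% (red nucleus), 0.0503% (ocular), 0.00579% (facial), 0% (vagus), 0.0121% (hypoglossal) and 0.867% (lumbar) of all genes passed as lower. Between day 5 and day 10, 6 tests passed, all as lower, against 2.39%, 0.856%, 0.695%, 0.222%, 1.33% and 5.27% of all genes in the same order. Gap43 accounted for 5 of these, with differences of -1.69 in ocular, -1.68 in lumbar, -1.19 in facial, -1.09 in hypoglossal and -1.06 in red nucleus neurons. Basp1 in ocular neurons was the other, at -0.86. The lumbar control libraries of day 5 include reads from another deposit. Whether the change differed between these intervals was not tested.

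Basp1 (chr15:25363277-25413764, minus strand) was lower at day 10 in ocular, red nucleus and lumbar neurons of controls. In ocular neurons its control mice were at 716, 865, 928 and 1107 RPKM at day 2 and at 286, 308, 362 and 400 at day 10. In the red nucleus they went from 863, 899, 915 and 1123 to 318, 492, 539 and 597. The ranges did not overlap in either. The differences were -1.41 ± 0.20 in ocular (adjusted p = 2.6e-05), -0.99 ± 0.17 in red nucleus (adjusted p = 0.00036) and -0.68 ± 0.16 in lumbar neurons (adjusted p = 0.0050). Hypoglossal (-0.48 ± 0.18), facial (-0.31 ± 0.22) and vagus (-0.20 ± 0.21) neurons did not pass.

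Stmn2 (chr3:8509360-8561606, plus strand), the stathmin of growing axons, changed little in most populations. In the control red nucleus it went from 1674, 1905, 1920 and 2075 RPKM at day 2 to 1189, 1192, 1431 and 1529 at day 10, with no overlap, a difference of -0.51 ± 0.14 (adjusted p = 0.016). Without control mouse 252 or 244 this was -0.46 in each case, with an adjusted p of 0.0504. The call was also lost in 1 of 6 other settings, where adjusted p reached 0.105. The day 10 red nucleus library of mouse 252 was the shallowest of all, at 0.342 M reads. The rest of its group held 3.51 to 7.53. Stmn2 differences in the other 5 populations lay between -0.26 and 0.16. Control ocular mice did not overlap either, at 997 to 1146 at day 2 and 854 to 960 at day 10, but that difference did not pass. Over all samples of both genotypes, the highest value, 2234, was in the red nucleus of an SMA mouse at day 5. Vagus neurons of SMA mice reached 2201.

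Whether the control change differed between populations was tested in 1 fit of all samples, a test added with these results known. It passed for Stmn2 (adjusted p = 0.0010), Gap43 (adjusted p = 0.0054) and Basp1 (adjusted p = 0.0069), 3 of 9 members against 4.91% of all genes. The Gap43 change minus that of the vagus was -1.63 ± 0.33 in ocular neurons (adjusted p = 0.0013) and -1.31 ± 0.33 in lumbar neurons (adjusted p = 0.019), a deeper fall in both. The facial (-0.86), hypoglossal (-0.76) and red nucleus (-0.76) differences from the vagus did not pass. Basp1 also fell further in ocular than in vagus neurons, with a difference of -1.21 ± 0.28 (adjusted p = 0.0099). Leaving out mouse 244 cut the number of members that passed to 1, and leaving out mouse 252 cut it to 2. In controls, summed markers of oligodendrocytes went from 19.3 to 50.9 RPKM at day 2 to 573 to 1279 at day 10 in lumbar tubes, and from 53.4 to 120 to 42.6 to 89.8 in vagus tubes. Summed astrocyte markers were higher at day 10 in 5 populations, with ocular tubes going from 1512 to 1815 to 2113 to 2594, and overlapped in lumbar tubes (1836 to 2175 against 1861 to 2108). All 8 markers of each list were measured, and their part in the changes was not tested.

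**Figure D2:**
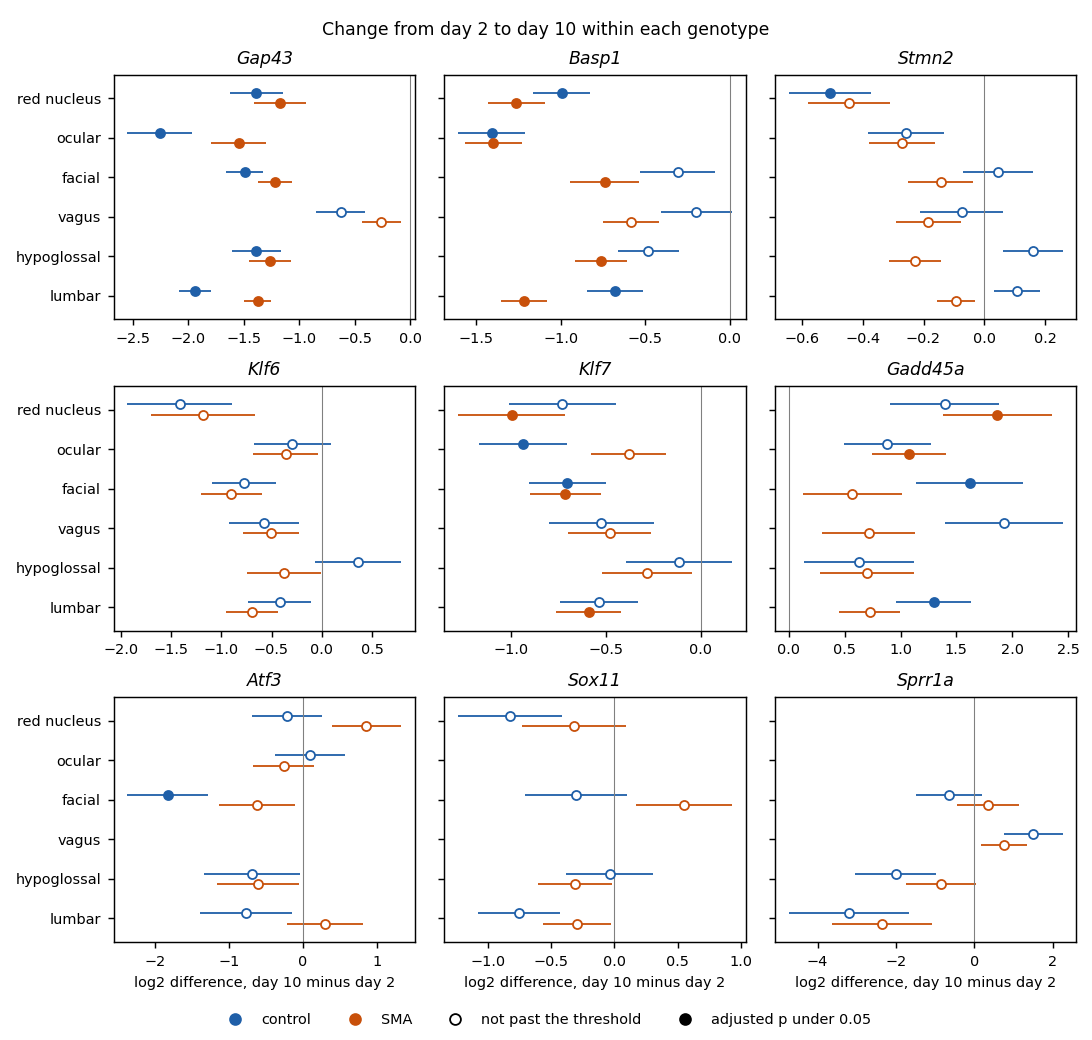
Change from day 2 to day 10 by member and population. Each point is a limma difference in log2(RPKM + 1), day 10 minus day 2, with a bar of 1 standard error either side, for control (blue) and SMA (orange), filled where the adjusted p was under 0.05, and populations below the filter on low values have no point. Gap43 lies below 0 in all 6 populations of both genotypes, from -2.25 to -0.26, and Gadd45a lies above 0 in all of them. The populations share mice, so they are not independent.

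Among the transcription factors, Klf7 (chr1:64029447-64122282, minus strand), a zinc finger factor that promotes axon growth, fell in control ocular and facial neurons. Ocular mice were at 23.8, 25.6, 34.5 and 34.5 RPKM at day 2 and at 13.5, 13.9, 15.7 and 16.1 at day 10, with no overlap. The differences were -0.94 ± 0.23 in ocular (adjusted p = 0.010) and -0.70 ± 0.20 in facial neurons (adjusted p = 0.036). The facial call was lost without any 1 of control mice 247, 252, 14, 244 and 28, with differences of -0.72 to -0.56 and adjusted p up to 0.17. Its relative Klf6 (chr13:5861482-5870394, plus strand) was at 22.8, 27.0 and 27.2 in control vagus neurons at day 2 and at 10.1, 16.0, 20.2 and 24.6 at day 10, which overlap. Klf6 had differences from -1.41 to 0.36, none past the threshold.

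Atf3 (chr1:191170296-191218039, minus strand), the injury-induced factor of the ATF/CREB family, stayed under 8 RPKM in every mouse at days 2 and 10. It was not tested in vagus neurons, where too few mice passed the filter on low values. In control facial neurons it was at 0, 3.53, 4.05, 5.11 and 6.42 at day 2 and at 0, 0, 0 and 0.651 at day 10. The ranges overlap through the 1 mouse at 0 at day 2. The difference was -1.82 ± 0.55 (adjusted p = 0.048), and it did not pass in 20 of 27 fits that left out 1 mouse, where adjusted p reached 0.12. Sox11 (chr12:27334264-27342574, minus strand), a factor of immature neurons, was near the limit of detection, with control lumbar mice at 0.128, 0.591, 1.06 and 1.18 at day 2 and all 4 at 0 at day 10. That difference was -0.75 ± 0.33 (adjusted p = 0.15), and Sox11 did not reach the filter in ocular and vagus neurons.

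Gadd45a (chr6:67035096-67037457, minus strand), a stress-induced protein of growth arrest and DNA repair, went the other way. In control lumbar neurons it was at 6.91, 8.87, 11.4 and 11.7 RPKM at day 2 and at 18.9, 23.1, 24.7 and 35.4 at day 10. All day 10 mice lay above all day 2 mice there, which held for 5.42% of all pairs of a gene and a population. The difference was 1.30 ± 0.33 in lumbar (adjusted p = 0.0085) and 1.62 ± 0.48 in facial neurons (adjusted p = 0.046). In facial neurons, 13 of 27 fits without 1 of the mice no longer passed (adjusted p up to 0.17). The other 4 populations had positive differences of 0.63 to 1.93 that did not pass. The populations share mice, and control mouse 247 had the highest Gadd45a of its day 10 group in all 6 of them. The shared direction is therefore not independent evidence.

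Sprr1a (chr3:92483952-92485895, minus strand), a small cornified envelope protein that injured sensory and motor neurons switch on, varied widely between control mice and populations at day 2. Control hypoglossal mice were at 4.54, 22.8, 32.6 and 44.99 RPKM and lumbar mice at 0, 1.91, 36.2 and 63.8. Facial mice were at 0, 0, 0, 3.23 and 12.8. In ocular, red nucleus and vagus neurons no control mouse exceeded 0.197 at that age. At day 10 the 4 control lumbar mice were at 0, the hypoglossal ones at 0, 3.14, 4.49 and 33.3, and the vagus ones at 0, 0, 6.72 and 9.76. The lumbar difference of -3.19 ± 1.54 did not pass (adjusted p = 0.20), nor did the hypoglossal one of -2.01 ± 1.04.

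Levels in controls were then compared between populations. At day 2 the level of 6 members differed between the 6 populations (Gap43, Stmn2, Klf6, Klf7, Sprr1a and Atf3, adjusted p up to 0.014), against 28% of all genes. At day 10 it was 5 members (Gap43, Stmn2, Klf6, Basp1 and Klf7, adjusted p up to 0.00059), against 23.6%. The vagus had the highest mean of Gap43, at 2696 RPKM at day 2 and 1742 at day 10, and its mice did not overlap those of the next population at either age. At day 10 the order went on through red nucleus (759), facial (481), hypoglossal (408), lumbar (259.3) and ocular (160). Neighbours in this order overlapped from red nucleus to lumbar, and lumbar and ocular neurons did not. Klf6 was also highest in the vagus, at 25.7 and 17.7, apart from the next population at 10.46 and 4.89, and lowest in ocular neurons at 2.01 and 1.21. Klf7 was highest in the red nucleus, at 60.6 and 36.4, and apart from the next population at day 2. Stmn2 was lowest in ocular neurons, at 1069 and 894, and apart from the others at both ages.

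**Figure D3:**
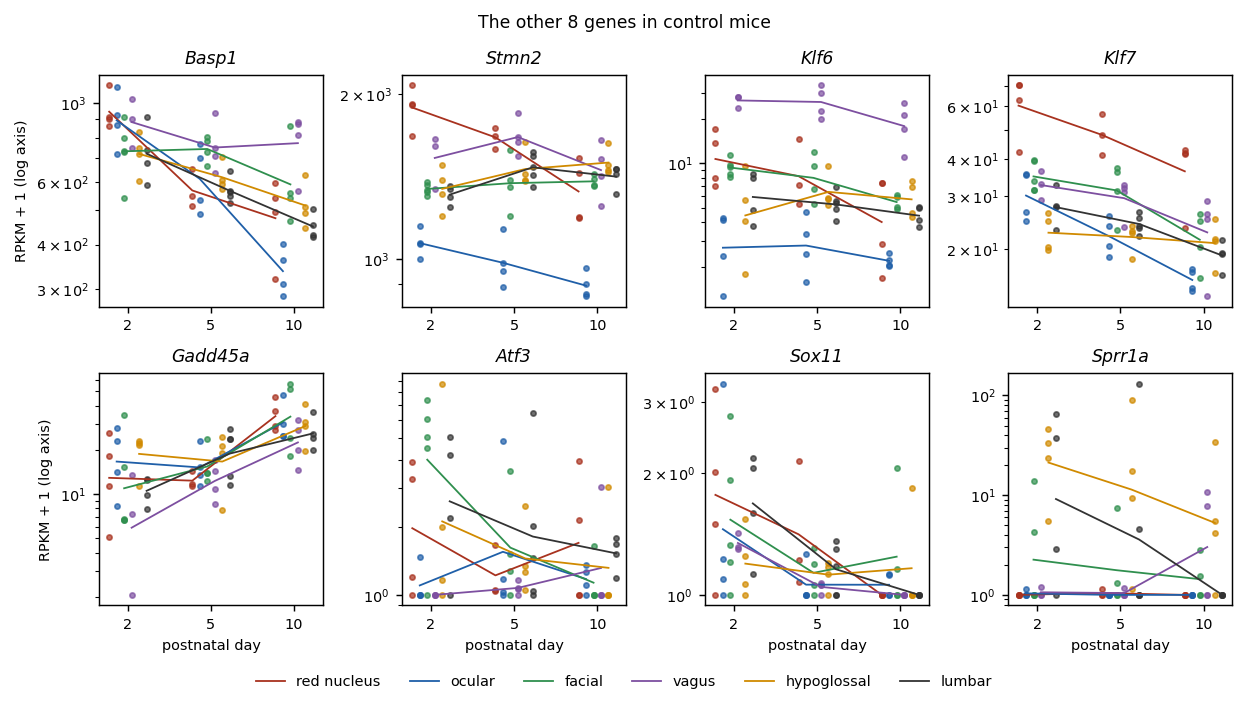
RPKM + 1 on a log axis against postnatal day in control mice for the 8 members other than Gap43, 1 point per mouse, coloured by population, with lines joining the geometric means of RPKM + 1. Klf6 is highest in vagus neurons and Klf7 in the red nucleus, and Sprr1a is spread from 0 to 130 RPKM in lumbar mice of day 5.

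The fall of the growth cone genes was also measured in SMA mice. Between day 2 and day 10, 13 of 49 tests passed as lower and 2 as higher. The share of all genes that passed as lower was 2.08% in the red nucleus, 3.03% in ocular, 3.21% in facial, 1.77% in vagus neurons, 1.88% in hypoglossal neurons and 9.8% in lumbar neurons, and the share that passed as higher was 2.98% in the red nucleus and 3.63% in ocular neurons. Gap43 passed in the same 5 populations as in controls, with differences of -1.54 ± 0.25 in ocular, -1.37 ± 0.12 in lumbar, -1.26 ± 0.19 in hypoglossal, -1.22 ± 0.15 in facial and -1.17 ± 0.24 in red nucleus neurons. Vagus neurons were at -0.26 ± 0.18 (adjusted p = 0.49). Basp1 passed in 5 populations, with lumbar mice going from 746 to 885 RPKM (median 851, n = 7) to 282, 287, 291, 424 and 563. The lumbar ranges did not overlap, and the difference was -1.22 ± 0.14 (adjusted p = 1.5e-07). Stmn2 passed in no population, with differences of -0.45 to -0.09.

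In SMA, Klf7 was lower at day 10 in facial (-0.72), lumbar (-0.59) and red nucleus (-0.998) neurons. The facial call was lost without SMA mouse 196 (-0.63, adjusted p = 0.069) or 249 (-0.71, adjusted p = 0.056), and the red nucleus call without SMA mouse 199, 249, 258, 206, 207, 209 or 211 or control mouse 75 (-1.08 to -0.77, adjusted p up to 0.17). The fall of Basp1 in facial neurons (-0.74 ± 0.21, adjusted p = 0.028) was lost without SMA mouse 199, 249, 258, 206 or 211, with differences of -0.78 to -0.57. Gadd45a was higher in red nucleus neurons (1.87 ± 0.49, adjusted p = 0.028) and ocular neurons (1.08 ± 0.33, adjusted p = 0.048). The red nucleus call was lost without SMA mouse 199, 249, 258, 206 or 211, and the ocular call in 18 of 28 leave-one-out fits. SMA and control were compared next within each age, since calls in each genotype do not test a difference between them.

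SMA against control asked whether an injury-like return appears with disease. Of 147 tests of the members over 6 populations and 3 days, 1 passed: Gap43 was higher in lumbar SMA neurons at day 10. With it, 9 had an unadjusted p under 0.05, which is near the 7.1% of all tests of all genes. Basp1 in the same lumbar contrast was another of these and went the other way. Its day 10 mice were at 282 to 563 RPKM in SMA and 419 to 502 in control, a difference of -0.34. The share of all genes that passed at days 2, 5 and 10 was 0.0434%, 0.0062% and 0.0124% in the red nucleus, 0.132%, 0.0252% and 0.359% in ocular, and 0.0232%, 0.0695% and 0.666% in facial neurons. For the vagus it was 0.00599% at each day. Hypoglossal neurons had 0.0364%, 0.00607% and 0.0728%, and lumbar neurons 0.0122%, 0.0488% and 0.775%.

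Lumbar Gap43 at day 10 was at 218.6, 255.9, 265 and 298 RPKM in control mice and at 319, 385, 394, 469 and 527 in SMA mice. All SMA mice lay above all control mice. The means were 259.3 ± 32.6 (SD, n = 4) and 419 ± 80.5 (SD, n = 5), and the difference was 0.68 ± 0.14 (adjusted p = 0.011). At day 5 the ranges overlapped, at 751 to 854 in control and 664 to 776 in SMA mice, with a difference of -0.19 that did not pass. The day 5 lumbar control libraries include reads from another deposit. The day 10 values of both groups were below every day 5 value of their own genotype. The call was lost without control mouse 253 (0.60, adjusted p = 0.062) and in a fit of the 2 groups alone (0.68, adjusted p = 0.083). The day 10 lumbar libraries held 2.85 to 5.42 M reads in controls and 2.32 to 5.42 in SMA.

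Beside this result, summed markers of vessels at day 10 were at 9.47 to 17.0 RPKM in control and 15.7 to 42.7 in SMA lumbar tubes. Motor neuron markers were at 1201 to 1799 and 1282 to 1462, astrocyte markers at 1861 to 2108 and 1981 to 2706, oligodendrocyte markers at 573 to 1279 and 714 to 1075, and Schwann cell markers at 119.9 to 374 and 209 to 332. For vessel and astrocyte markers the SMA median (22.5 and 2160) lay above the highest control tube (17.0 and 2108), while the ranges of the other lists overlapped more. Of these lists, 1 Schwann cell marker was at 0 throughout the lumbar control group and no marker was at 0 throughout the SMA group. Their part in the Gap43 difference was not tested.

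Ocular Gap43 at day 10 was at 118.96, 135, 180 and 207.7 RPKM in control and at 170.7, 259.3, 336, 400 and 616 in SMA mice. The means were 160 ± 40.9 (SD, n = 4) and 356 ± 168.7 (SD, n = 5), and 1 SMA mouse lay within the control range. The difference was 1.05 ± 0.28 and did not pass (adjusted p = 0.14). Of 28 fits that left out 1 mouse, it passed in 1, without SMA mouse 249 (1.28 ± 0.26, adjusted p = 0.017). Differences in these fits were 0.82 to 1.28, and adjusted p reached 0.53. Of 7 other settings it passed in 1, without the trochlear libraries (1.26 ± 0.27, adjusted p = 0.0205), and adjusted p reached 0.31. Ocular SMA tubes also had less of the motor neuron markers, at 452 to 875 against 926 to 1024 in controls, and their red nucleus markers reached 176.9 against 16.9. Astrocyte markers were at 1948 to 2532 against 2113 to 2594 and vessel markers at 6.14 to 93.05 against 4.61 to 10.48. The part of these in the Gap43 values was not tested.

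Other populations held Gap43 closer to control at day 10. The SMA differences were 0.30 ± 0.21 in hypoglossal, 0.28 ± 0.17 in facial, 0.27 ± 0.24 in red nucleus and 0.13 ± 0.20 in vagus neurons, none past the threshold. The test of whether the SMA difference at day 10 differed between the 6 populations passed for 0 of 9 members by limma, against 0.579% of all genes. Gap43 had an adjusted p of 0.66 in it. Ocular minus vagus was 0.93 ± 0.30 (adjusted p = 0.39). Whether the SMA difference changed between day 2 and day 10 was tested in each population, with 0 of 49 member tests past the threshold by limma and 3 with an unadjusted p under 0.05, near the 6.92% of the tests of all genes. The share of all genes past the threshold was 0.126% in ocular, 0.122% in facial and 0% in the other 4 populations. Gap43 in lumbar neurons was 1 of the 3, at 0.57 (adjusted p = 0.32). The others were negative, with Basp1 in lumbar neurons at -0.54 and Stmn2 in hypoglossal neurons at -0.39.

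**Figure D4:**
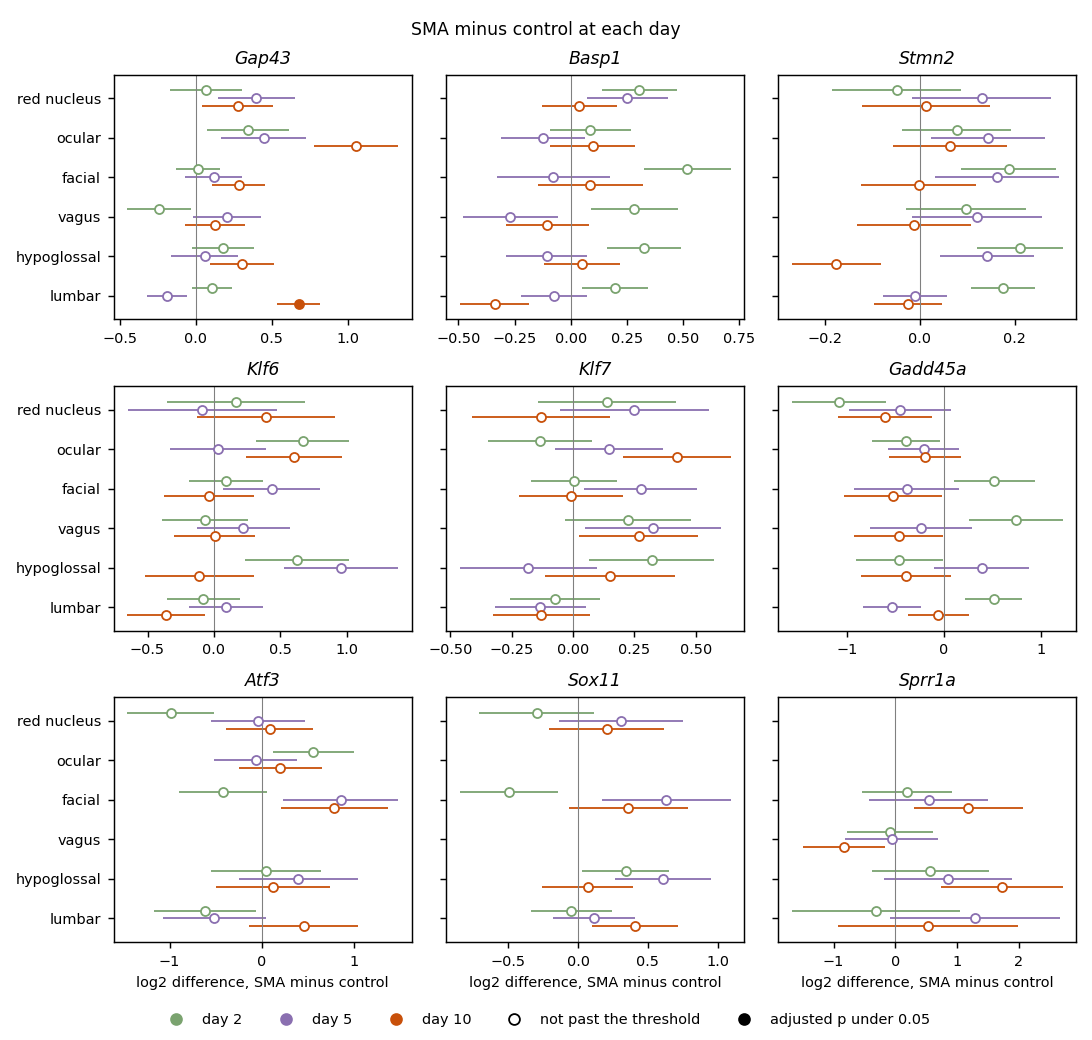
SMA minus control by member, population and day. Each point is a limma difference in log2(RPKM + 1) with a bar of 1 standard error either side, coloured by day and filled where the adjusted p was under 0.05, and populations below the filter have no point. Gap43 in lumbar neurons at day 10, at 0.68, is the 1 filled point, and Gap43 in ocular neurons at day 10 is larger, at 1.05, with a wider error.

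Atf3 and Sprr1a did not pass in SMA against control in any population tested. In facial neurons at day 10, Atf3 was at 0.346, 0.519, 0.843 and 2.86 RPKM in SMA mice and at 0, 0, 0 and 0.651 in controls, a difference of 0.78 ± 0.58 (adjusted p = 0.88). Facial Sprr1a was at 0, 1.70, 3.83 and 7.70 in SMA mice and at 0, 0, 0.530 and 1.80 in controls, a difference of 1.18 ± 0.89 (adjusted p = 0.88). Both sets of ranges overlapped, with most SMA mice above most controls. In lumbar neurons at day 10, Atf3 was between 0 and 2.92 RPKM in SMA mice and between 0.186 and 0.799 in controls, a difference of 0.45 ± 0.59. Sprr1a was at 0 in 4 lumbar SMA mice and at 5.32 in the fifth, and at 0 in all control mice. In hypoglossal neurons Sprr1a was at 3.49, 12.03, 23.9, 28.9 and 36.6 in SMA mice and at 0, 3.14, 4.49 and 33.3 in controls, a difference of 1.73 ± 0.98 (adjusted p = 0.79). Other cases were lower in SMA. Atf3 in the red nucleus at day 2 was at 0 in all 4 SMA mice and at 0 to 2.92 in controls, a difference of -0.99. Sprr1a in vagus neurons at day 10 had a mean of 2.62 in SMA mice, of which 4 were at 0, and 4.12 in controls. At day 5 in lumbar neurons, 1 control mouse was at 130 and 1 SMA mouse at 266, while the other control mice were at 3.56 or below and the other SMA mice at 20.0 or below. The ranges of SMA and control mice overlapped in each of these cases.

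Ranges of SMA and control mice were apart for few members. At day 10, SMA lay above control in 2 of 49 tested pairs of a member and a population, lumbar Gap43 being 1 of them, against 2.4% for all genes, and below in 1, against 1.16%. At day 2 SMA lay above in 1 and below in 0, against 1.17% and 0.691%, and at day 5 above in 1 and below in 0, against 2.26% and 1.49%. The cases other than lumbar Gap43 did not pass. Klf6 in ocular neurons was at 1.69 to 3.45 RPKM in SMA and 1.03 to 1.48 in control mice, a difference of 0.60 ± 0.36 (adjusted p = 0.94). Stmn2 in hypoglossal neurons was at 1234 to 1396 in SMA and 1437 to 1627 in control mice, a difference of -0.18 ± 0.09 (adjusted p = 0.76). At day 2, Stmn2 in facial neurons was at 1461 to 1594 in SMA and 1300 to 1383 in control mice (0.19, adjusted p = 0.58). At day 5, Sox11 in hypoglossal neurons was at 0.479 to 1.25 in SMA and at most 0.2 in control mice (0.61, adjusted p = 0.85).

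A set of 5 lists of other genes of axon growth and injury were set beside the members, and they were chosen with earlier results of these data known. Of 26 growth cone and axon growth proteins, 16 were lower at day 10 in at least 1 control population and 2 were higher. Of all genes tested in at least 1 population, 11.2% were lower in 1 or more and 9.83% higher. Over all populations, 65 of the list's tests passed as lower and 2 as higher, against 7.06% of the tests of all genes in either direction. Dcx, the microtubule protein of young neurons, was lower in 6 populations (-3.45 to -2.06), and Crmp1, a semaphorin signalling protein, in 6 (-1.68 to -1.32). Fabp7, counted in this list though it is the fatty acid binding protein of radial glia and astrocytes, was lower in 6 (-3.18 to -2.33). Which cells gave its reads was not tested. Tubb2b, a tubulin of growing axons, was lower in 5. Of 20 relatives of the members, 8 were lower and 2 higher in at least 1 population, among them Marcksl1 (6 populations), Marcks (5) and Stmn1 (4), all lower, and Klf9, a factor that limits axon growth, higher in 5 by 1.66 to 2.81.

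Of 34 other injury-induced genes tested, 18 were lower and 8 higher at day 10 in at least 1 control population, against the same 11.2% and 9.83% of all genes, and over 180 tests 34 passed as lower and 13 as higher. Ngfr, the low-affinity neurotrophin receptor, Gal, a neuropeptide, and Cdkn1a, a cell cycle inhibitor, were each lower in 4. Hspb1, a small heat shock protein, was higher in 3 and lower in 1. Of 13 genes of the dual leucine zipper kinase pathway, 4 were higher and 0 lower by limma in at least 1 population, led by Mapk10, a neuronal Jun kinase, in 4 populations. Of the 78 tests of that list, 7 passed, which is near the 7.06% for all genes. Of 13 genes known to limit axon regrowth, 4 were lower and 1 higher (Klf9, which is also among the relatives), with Rtn4r, the receptor of Nogo, lower in 2.

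In SMA against control, 9 of 540 tests of the other injury-induced genes passed, all higher, against 0.129% of the tests of all genes, and 0 of the tests of the other 4 lists passed by limma. Cdkn1a took 7 of them. It was listed with earlier results of these data known and was also a check gene. The count of 9 is therefore not a test of an injury response. In lumbar neurons at day 10 Cdkn1a was at 128.2 to 276 RPKM in SMA and 3.09 to 15.4 in control mice, a difference of 4.85. In ocular neurons at day 10 it was at 152 to 305 and 1.62 to 5.23, a difference of 5.59. Over all days, red nucleus neurons had Cdkn1a at 69.5 to 392 in SMA and 24.3 to 132.8 in control mice. Vagus neurons had it at 28.6 to 360 and 16.4 to 84.3. Ddit3, a factor of the unfolded protein response, was at 71.2 to 103 in SMA and 37.2 to 59.05 in control lumbar mice at day 10, a difference of 0.95 (adjusted p = 0.024). Gdf15, a stress-induced cytokine, was at 2.15 to 5.39 in SMA and at most 0.310 in control ocular mice at day 10, a difference of 2.03 (adjusted p = 0.010).

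Genes whose pattern was most like a member's were named by Pearson's r over the 36 group means of population, day and genotype, given as a description, since groups share mice and libraries. For Gap43 they were Nnat (0.966), Lrrc3 (0.941) and Dpysl3 (0.936). For Basp1 they were BC005764 (0.895), Tuba1a (0.886) and Kidins220 (0.884), and for Stmn2 Pcdh19 (0.844), Cdh13 (0.838) and Fam49a (0.827). For Klf6 they were Maoa (0.921) and Tmem50a (0.914), and for Klf7 Sept3 (0.922) and Slc35f1 (0.908). Among the members, Gap43 had r of 0.825 with Klf6, 0.747 with Basp1 and -0.759 with Gadd45a over the same 36 means. Sprr1a was closest to Onecut2 (0.887), and Atf3 and Sox11 had no gene above 0.705 and 0.689, with most of their values near 0.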

How the data were processed

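Laser-captured neurons of 34 mice were sequenced and the authors deposited 1 table of RPKM, normalized by the authors to gene length and library depth. Reads were aligned with STAR 2.4.1c, and the builds mm10 and hg19 are listed, per the submitters' processing notes. The counting tool, annotation and use of strand are not given in the sources used here, so overlapping genes are uncertain. Depth was recovered from the steps of low RPKM values in genes with 1 transcript, and a share of values was not whole, so no count test was run.

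Where a mouse had several libraries of a population, their RPKM was averaged, so that mice are the replicates. The test was limma 3.58.1 (R 4.3.3; lmFit, eBayes with trend, two-sided) applied to log2(RPKM + 1), in 1 fit per population of its 6 groups, for genes with RPKM of at least 1 in as many samples as the smallest group. Fold changes on this scale understate low genes. P-values were adjusted by Benjamini and Hochberg over all genes of a contrast, with a threshold of 0.05. Tests between populations used 1 fit of 36 groups. The fit was tested on simulated data. Figures and promoter searches used Python 3.11.15. Errors given are SEs of limma or SDs between mice.

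The members and gene lists were chosen with earlier results of these data known. Named genes were the members, up to 4 genes of each list with the largest SMA differences past the threshold, and the 4 that passed in most control populations. The test of the control change between populations and the ocular Gap43 result were added after the data were seen. Alternatives were another pseudocount (0.1), no filter or a filter of 5, quantile normalization, fits of the groups compared alone, single libraries as samples, no trochlear libraries, each mouse left out, and a replicate block of the mouse. Mouse numbers mark 1 animal across populations per the labels. Deviations of 339 same-mouse pairs had a median r of 0.0438, against -0.00821 for other mice. Promoters of 2 members and the proteins were not used here.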

Additional observations from a re-analysis of the deposited data

Results flagged for a closer look

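In groups of 4 to 10 mice, a highest or lowest mouse was set apart where its gap to the next exceeded Dixon's 95% critical value for that group size. The highest value of the group also had to exceed that of 3 reads. Of 273 groups tested, 52 had such a mouse. For normally distributed values, chance alone gives about 1 in 20 groups. Atf3, Sox11 and Sprr1a were at 0 in 63, 68 and 91 of 160 samples, where that share does not hold. The count of 52 is therefore a description, and no excess over chance is read from it. Values are RPKM.

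Gap43, the growth cone protein, stood apart as high in control mouse 253 in facial neurons at day 10 (661), SMA mouse 207 in hypoglossal neurons at day 2 (1894) and SMA mouse 199 in hypoglossal neurons at day 10 (861). Further high values came from SMA mouse 209 in lumbar neurons at day 2 (1646), control mouse 28 in red nucleus neurons at day 2 (2321) and control mouse 71 in vagus neurons at day 5 (2660). High values were also seen in SMA mouse 196 in vagus neurons at day 10 (2862). Gap43 stood apart as low in control mouse 75 in lumbar neurons at day 5 (751).

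Stmn2, the axonal stathmin, stood apart as high in SMA mouse 31 in hypoglossal neurons at day 5 (1925), control mouse 34 in hypoglossal neurons at day 5 (1634) and SMA mouse 31 in ocular neurons at day 5 (1506). Also set apart were SMA mouse 250 in ocular neurons at day 10 (1118), SMA mouse 206 in red nucleus neurons at day 2 (2129) and SMA mouse 31 in red nucleus neurons at day 5 (2234).

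Klf6, a zinc finger factor, stood apart as high in control mouse 29 in hypoglossal neurons at day 5 (8.68). Klf6 stood apart as low in SMA mouse 18 in vagus neurons at day 2 (16.4).

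Klf7, a zinc finger factor, stood apart as high in SMA mouse 211 in lumbar neurons at day 2 (47.7) and SMA mouse 199 in lumbar neurons at day 10 (19.5). Klf7 stood apart as low in control mouse 247 in red nucleus neurons at day 10 (22.5).

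Atf3, the injury-induced factor, stood apart as high in control mouse 254 in facial neurons at day 10 (0.651), control mouse 26 in hypoglossal neurons at day 2 (7.75) and SMA mouse 249 in hypoglossal neurons at day 10 (2.24). Set apart as well were control mouse 254 in hypoglossal neurons at day 10 (2.04), SMA mouse 207 in lumbar neurons at day 2 (7.92) and SMA mouse 46 in lumbar neurons at day 5 (2.37). Further high values came from control mouse 34 in lumbar neurons at day 5 (5.51), control mouse 28 in ocular neurons at day 2 (0.476) and control mouse 71 in ocular neurons at day 5 (3.88). High values were also seen in SMA mouse 196 in ocular neurons at day 10 (1.97), SMA mouse 199 in vagus neurons at day 10 (0.509) and control mouse 247 in vagus neurons at day 10 (2.02).

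Sox11, the factor of immature neurons, stood apart as high in control mouse 252 in facial neurons at day 10 (1.06), SMA mouse 199 in hypoglossal neurons at day 10 (1.28) and control mouse 252 in hypoglossal neurons at day 10 (0.837). Also set apart were SMA mouse 77 in lumbar neurons at day 5 (1.7), control mouse 14 in ocular neurons at day 2 (2.33) and control mouse 75 in ocular neurons at day 5 (0.263). Set apart as well were SMA mouse 206 in red nucleus neurons at day 2 (2.5), SMA mouse 196 in red nucleus neurons at day 10 (0.603) and SMA mouse 211 in vagus neurons at day 2 (1.49).

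Sprr1a, the injury-induced small protein, stood apart as high in control mouse 28 in facial neurons at day 2 (12.8), control mouse 75 in facial neurons at day 5 (6.46) and control mouse 253 in hypoglossal neurons at day 10 (33.3). Further high values came from SMA mouse 207 in lumbar neurons at day 2 (59), SMA mouse 61 in lumbar neurons at day 5 (266) and control mouse 34 in lumbar neurons at day 5 (130). High values were also seen in SMA mouse 196 in lumbar neurons at day 10 (5.32) and SMA mouse 250 in vagus neurons at day 10 (13.1).

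Gadd45a, the growth arrest protein, stood apart as high in SMA mouse 38 in facial neurons at day 2 (38.7) and control mouse 29 in facial neurons at day 5 (22.7). Gadd45a stood apart as low in control mouse 244 in hypoglossal neurons at day 2 (10.4) and SMA mouse 31 in hypoglossal neurons at day 5 (6.79).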

How the results depend on the processing

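The 30 member calls from day 2 to day 10 in either genotype and in SMA against control, and ocular Gap43 at day 10, kept their direction in all alternatives run. The calls between days 5 and 10 and those of list genes were not run under alternatives. Members lower at day 10 numbered 12 in controls (9 to 13 across other settings, 10 to 13 with 1 mouse left out) and 13 in SMA (12 to 16, and 11 to 14). Of the 30 called results, a call was lost 18 times under other settings and in 79 of 837 fits with 1 mouse left out. SMA against control gave 1 call, 0 with only the groups compared and 2 without the trochlear libraries, and 0 to 2 with 1 mouse left out. Fewer samples enter the fit of 2 groups, and the cause of the other change was not tested. No call was made for the age interaction or the difference between populations (0 under each setting run, 0 to 0 with 1 mouse left out).

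With mouse as a replicate block, control levels differed for 6 members at day 2 and 5 at day 10, the same genes as without it, the control change for the same 3, and the SMA difference for 0. With 1 mouse left out these were 5 to 7, 5 to 5, 1 to 3 and 0 to 0. The block could not be fitted within a population, where each mouse gives 1 sample. The shallowest library, that of control mouse 252 in the red nucleus at day 10, held 0.342 M reads. Such depth limits Atf3, Sox11 and Sprr1a, which lie near 0 in many samples, and no absence is read from them. It also makes the other members less certain in that sample.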

Other observations

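SMA mouse 31 at day 5 had the highest Gap43 of its group in 5 of the 6 populations, and likewise the highest Klf7 and Stmn2 in 5 of 6 and the highest Klf6 in 4. Its library was the deepest of its group in facial (12.5 M reads), vagus (14.2) and hypoglossal (11.2) neurons, and in ocular (13.6) and red nucleus (16.3) neurons the deeper of its 2 libraries was, while its lumbar library had 6.02. The part of depth in these values was not tested. At day 10, control mouse 247 had the highest Gadd45a of its group in 6 of 6 populations. SMA mouse 196 had the highest Basp1 of its day 10 group in 5 of 6.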
